A study of Homo sapiens with 18 samples.

Results

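Collagen genes were followed across 18 RNA-seq libraries of IMR90 cells, a line of human lung fibroblasts. The members were the 44 genes of the 57500 in the table whose symbol consists of COL, a type number, A and a chain number. They comprised 11 fibrillar collagens, 8 basement membrane collagens and 25 other collagens, and 32 of the 44 were among the 16994 genes with enough counts to be tested. There were 6 groups with 3 libraries each. Proliferating cells (Prol) were compared with cells collected 12 days after irradiation with 20 Gy, when they are senescent (Sen (IR)). The remaining 4 groups were irradiated and then treated for 48 h, from day 1, with CCCP, a protonophore that dissipates the mitochondrial membrane potential. By the study's methods, cells for this treatment were engineered to overexpress Parkin, so that CCCP leads to the removal of their mitochondria (Sen (IR) + CCCP). The labels do not say whether Prol and Sen (IR) cells carried the same change. A legend of the study for RNA-seq with acetate marks intact senescent cells as Parkin cells too, without naming these libraries. These 4 groups received nothing further, 20 mM sodium acetate from day 3, 10 µg of transfected mtDNA on day 10, or both. Neither proliferating cells given CCCP nor a mock transfection were analysed here, so exposure to CCCP and loss of mitochondria cannot be told apart, nor can transfection and mtDNA. All treatments of mitochondria-depleted cells were compared with the same 3 Sen (IR) + CCCP libraries.

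Collagens are secreted as triple helices of 3 chains, and the gene name gives the type and the chain. Fibrillar collagens (types I, II, III, V, XI, XXIV and XXVII) assemble into the cross-striated fibrils of connective tissue, with type I as a heterotrimer of the COL1A1 and COL1A2 chains, type III as a homotrimer of COL3A1, and types V and XI as minor components that limit fibril diameter. Type IV collagen forms the sheet-like network of basement membranes, in which types XV and XVIII are also found. Among the others, type VI forms beaded microfilaments around cells, types IX, XII, XIV, XVI and XXI associate with fibril surfaces, types VIII and X form networks, type VII builds the anchoring fibrils of skin, and types XIII, XVII and XXV span the cell membrane. Fibroblasts are a major source of types I, III, V and VI, and their matrix output is known to alter in senescence.

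Each library held between 24624886 and 46224280 counts. The labels number the 3 libraries of a group but do not say whether they came from separate cultures, so the p-values below measure the spread between these libraries. Fibroblast markers were present in every library (VIM at 2670 to 4090 TPM, a level corrected for gene length and library size). The summed levels of 4 epithelial and 4 endothelial markers stayed at or below 4.97 and 2 TPM. The leukocyte markers PTPRC, CD3E and CD14 reached at most 0.118, 0.0683 and 2.36 TPM in any library. Their sum was 0.574 to 0.938 TPM in Sen (IR) + CCCP, 1.6 to 2.44 TPM with acetate and 1.03 to 1.84 TPM with both, and its part in the changes with acetate was not tested. KRT5, KRT14, CDH5 and CD3E were at a median of 0. The summed level of the 8 fibroblast markers was 4910 to 5150 TPM in Prol, 3960 to 4440 TPM in Sen (IR), 4510 to 4650 TPM in Sen (IR) + CCCP, 3730 to 3850 TPM with acetate, 4410 to 4620 TPM with mtDNA and 3670 to 3880 TPM with both, and its part in the results below was not tested. The 13 protein-coding genes of mtDNA took 1.75% to 2.89% of counts in Prol and Sen (IR), 0.114% to 0.138% in Sen (IR) + CCCP with or without acetate, and 0.0461% to 0.0534% in Sen (IR) + CCCP + mtDNA. A pair of libraries stood apart from their replicates. In Sen (IR) + CCCP + acetate + mtDNA, replicate 2 differed from the other two by a chi-square per degree of freedom over genes of 28.2 and 24.7, against 3.33 between those, and its mtDNA share was 0.237% against 0.0624% and 0.064%. In Sen (IR), replicate 3 differed from the others by 27.2 and 22.1, against 3.29 between those. Calls that depend on either library are given below with and without it in some comparisons, but not in all.

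Transcripts of collagen genes made up 5.59% ± 0.315 of all counts in Prol (mean ± SD, n = 3), 3.21% ± 0.235 in Sen (IR) and 1.49% ± 0.0306 in Sen (IR) + CCCP. Fibrillar collagens went from 3.13% to 1.99% and then to 0.424%, the steepest fall of the 3 classes from Sen (IR) to Sen (IR) + CCCP and from Prol to Sen (IR) + CCCP. Basement membrane collagens held between 0.276% and 0.341% in all 6 group means, and the other collagens fell from 2.12% in Prol to 0.878% in Sen (IR) and 0.766% in Sen (IR) + CCCP, so that the first step was steeper in them (a ratio of 0.414, against 0.636 in the fibrillar class). These shares are of each library's total counts, without correction for gene length or the scaling used for the single-gene tests below. COL4A1 and COL4A2 held the most counts of the basement membrane class, so its share says little of its other genes. With acetate, the share of the other collagens was 1.15%, and with acetate and mtDNA 1.2%, against 0.714% with mtDNA alone. In the acetate group, 2 genes held the most counts of this class. These were COL6A3 (173327 to 292702 per library) and COL12A1 (89591 to 138754), with COL6A1 next (28564 to 42457). The fibrillar share was lower with each of the 3 treatments, at 0.333% with acetate, 0.296% with mtDNA and 0.314% with both. For each of these fibrillar differences, and for the other collagens with acetate or with both, the 3 libraries of each group did not overlap, which gives an exact two-sided permutation p of 0.1, the smallest that 3 libraries against 3 allow. In bulk RNA, fewer cells producing a collagen and less RNA per cell cannot be told apart.

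**Figure D1:**
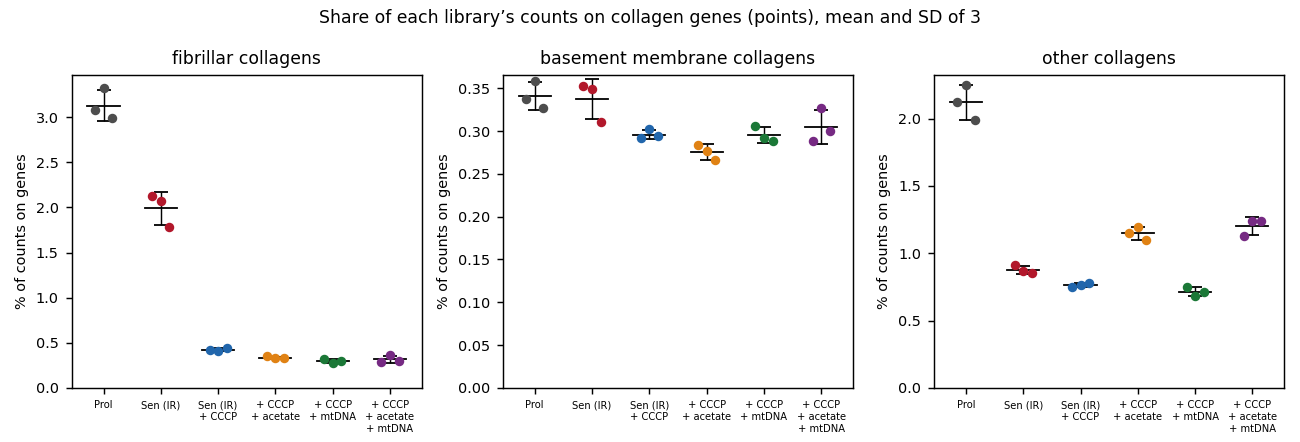
Share of each library's counts (per cent, linear axis from 0) on fibrillar, basement membrane and other collagen genes in the 6 groups; points are libraries, the long bar is the mean and the whiskers are 1 SD (n = 3). Fibrillar collagens fell from a mean of 3.13% in Prol to 0.424% in Sen (IR) + CCCP, and the other collagens stood at 1.15% and 1.2% in the 2 groups given acetate against 0.766% without it.

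Single genes were compared on counts by the quasi-likelihood test of edgeR, the source of every adjusted p below unless another is named, with Benjamini-Hochberg adjustment over all 16994 genes and a threshold of 0.05. Log2 fold changes are relative to TMM-scaled library sizes, and the value after ± is the standard error. TPM levels carry no such scaling. On log2(TPM + 1), the median of all genes was higher by 0.35 in Sen (IR) + CCCP than in Sen (IR) and by 0.42 than in Prol, against 0.03 in both fits to counts. The shares of all genes called higher and lower were then 57.2% and 15.3% (over Sen (IR)) and 60.4% and 16.3% (over Prol), so folds and TPM ratios involving Sen (IR) + CCCP and an earlier group differ.

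In Sen (IR) against Prol, which asks what irradiation-induced senescence does to collagen mRNA, 5 of the 32 tested collagen genes were higher (15.6%, against 26.7% of all genes tested) and 18 were lower (56.2%, against 29.9%). Fibrillar collagens had 1 gene higher and 6 lower of 10, other collagens 4 and 9 of 15, and basement membrane collagens 3 lower of 7. The median log2 fold change of the 32 was −0.61, against −0.01 for all genes. In Sen (IR) + CCCP against Sen (IR), which asks what CCCP and the loss of mitochondria together add, 4 were higher (12.5%, against 34%) and 24 lower (75%, against 31.3%). Of the fibrillar genes, 9 of 10 were lower, with a median of −1.52. The basement membrane class had 2 higher and 4 lower of 7 and the other class 2 and 11 of 15. Against Prol, Sen (IR) + CCCP had 3 collagen genes higher (9.38%, against 35.1%) and 24 lower (75%, against 34.1%), with a fibrillar median of −2.43. The basement membrane class had 1 higher and 5 lower of 7 there, with a median of −0.43.

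Acetate, a source of acetyl-CoA that does not pass through mitochondria, moved collagen genes of Sen (IR) + CCCP cells in both directions, with 13 higher (40.6%, against 28.8% of all genes) and 10 lower (31.2%, against 28.3%). These shares were near the background when all classes were pooled. By class, 3 fibrillar genes were higher and 4 lower, 2 basement membrane genes were higher and 3 lower, and 8 other collagens were higher and 3 lower. With mtDNA alone, 2 collagen genes were higher (6.25%, against 10.7%) and 10 lower (31.2%, against 7.4%), and 7 of the 10 were fibrillar. Fits that each lacked 1 of the 6 libraries called 5 to 8 genes lower, the fewest without any 1 of 4 libraries (Sen (IR) + CCCP replicates 1 and 3, mtDNA replicates 2 and 3). With acetate and mtDNA together, 13 were higher (40.6%, against 30.3%) and 12 lower (37.5%, against 31.4%). Without replicate 2 of the combined treatment, 11 were higher and 13 lower, and COL4A1, COL6A1 and COL21A1 were no longer called. Adding mtDNA to acetate gave 3 higher (9.38%, against 6.57%) and 3 lower (9.38%, against 6%). The 3 higher calls were lost without any 1 of 3 libraries (acetate replicates 2 and 3, replicate 2 of the combined treatment) and when only the groups compared were fitted. Without that last library, 6 genes were called lower (COL1A1, COL1A2, COL24A1, COL27A1, COL16A1 and COL7A1). Adding acetate to mtDNA gave 17 higher (53.1%, against 27.4%) and 8 lower (25%, against 29.9%). Without replicate 2 of the combined treatment, 14 were higher and 8 lower. The calls of COL1A1, COL5A1 and COL18A1 as higher and of COL21A1 as lower were then lost.

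**Figure D2:**
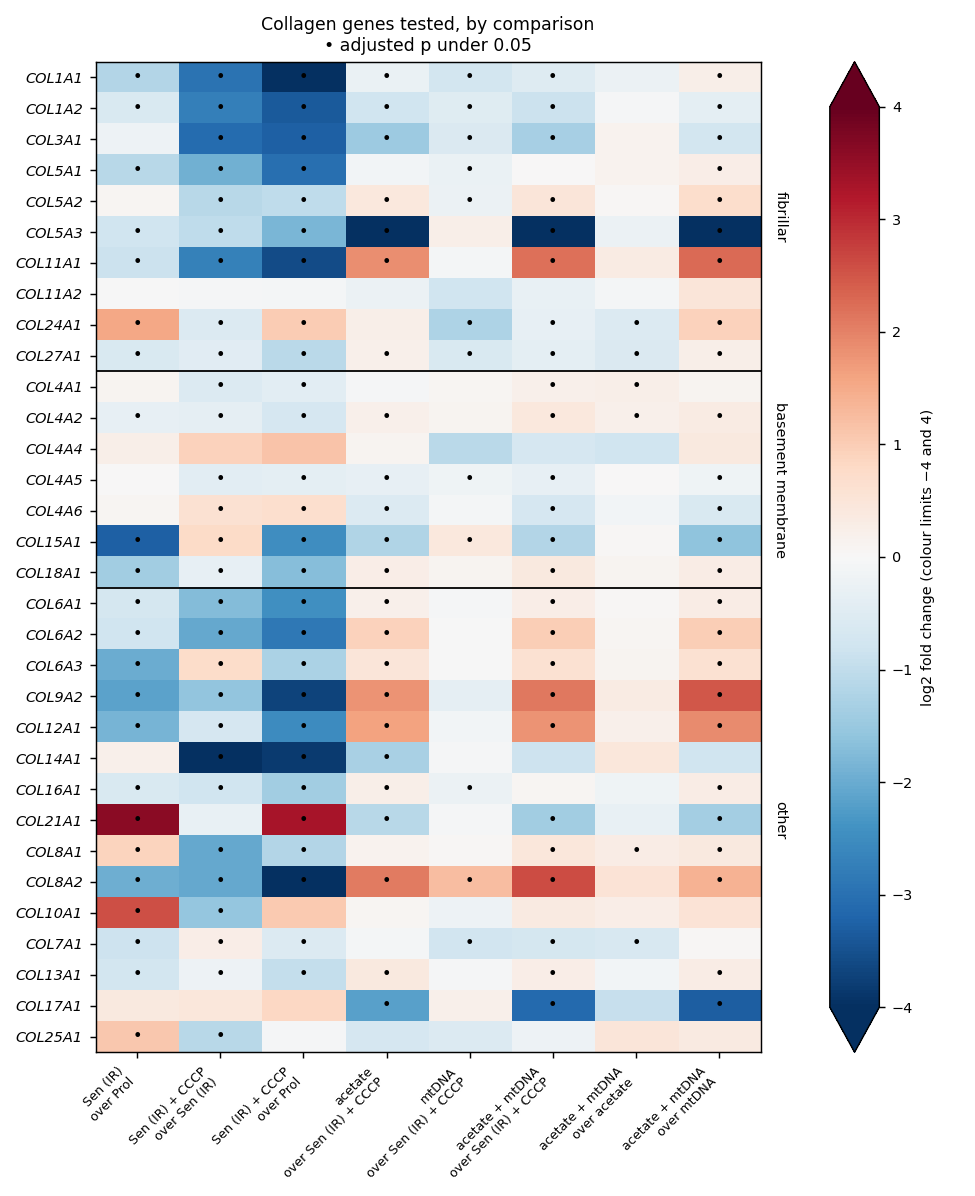
Log2 fold changes of the 32 tested collagen genes (rows, by class) in 8 comparisons (columns) on the count scale; blue is lower and red higher in the first-named group, colours are limited at −4 and 4, and dots mark an adjusted p under 0.05. The CCCP columns are blue in 24 rows with a dot, and the columns with acetate show both colours, with COL5A3 and COL17A1 lower and COL11A1, COL9A2, COL12A1 and COL8A2 higher; on log2(TPM + 1), COL4A2, COL18A1 and COL13A1 (over Sen (IR)) and COL4A1 and COL4A5 (over Prol) have the opposite sign with CCCP.

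The chains of type I collagen, the most abundant protein of the fibroblast matrix, carried the highest collagen levels in Prol. COL1A1 (chr17:50184101-50201632, minus strand, GRCh38) was at 5680, 6520 and 5300 TPM in Prol, 2910, 2940 and 2410 TPM in Sen (IR), and 495, 451 and 491 TPM in Sen (IR) + CCCP. After acetate it was at 391, 360 and 359 TPM, with mtDNA at 289, 267 and 271 TPM, and with both at 282, 347 and 295 TPM. Prol, Sen (IR) and Sen (IR) + CCCP did not overlap each other, and all 9 libraries with acetate, mtDNA or both lay below the Sen (IR) + CCCP libraries. COL1A1 changed by −1.16 ± 0.09 (log2) from Prol to Sen (IR) (adjusted p = 2.14e-10) and by −2.95 ± 0.09 from there to Sen (IR) + CCCP (adjusted p = 1.01e-16). It changed by −4.11 ± 0.10 from Prol to Sen (IR) + CCCP (adjusted p = 5.13e-19), the largest fibrillar change between those groups. Further falls followed acetate (−0.27 ± 0.09, adjusted p = 0.00993), mtDNA (−0.72 ± 0.09, adjusted p = 2.41e-06) and both (−0.50 ± 0.09, adjusted p = 3.25e-05). The call with acetate was lost without either of 2 Sen (IR) + CCCP libraries (replicates 1 and 3) or 2 acetate libraries (replicates 2 and 3).

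COL1A2 (chr7:94394895-94431227, plus strand), the partner chain, was at 4610, 4980 and 4480 TPM in Prol, 3490, 3380 and 2780 TPM in Sen (IR) and 627, 628 and 679 TPM in Sen (IR) + CCCP. With acetate it was at 357, 340 and 346 TPM, with mtDNA at 465, 421 and 439 TPM, and with both at 281, 402 and 291 TPM. All treated libraries were again below the untreated mitochondria-depleted ones, here with acetate lower than mtDNA. The log2 fold changes were −0.62 ± 0.10 for senescence (adjusted p = 2.66e-05), −2.75 ± 0.11 for CCCP (adjusted p = 4.50e-15), −0.79 ± 0.10 for acetate (adjusted p = 1.17e-06) and −0.47 ± 0.10 for mtDNA (adjusted p = 0.00269). The TPM ratio of COL1A1 to COL1A2 was 1.24 ± 0.0656 in Prol, 0.858 ± 0.0196 in Sen (IR), 0.744 ± 0.0402 in Sen (IR) + CCCP, 1.06 ± 0.0252 with acetate, 0.625 ± 0.00889 with mtDNA and 0.962 ± 0.0837 with both (SD, n = 3).

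COL3A1 (chr2:188974373-189012746, plus strand), which encodes the homotrimeric type III collagen of extensible tissues, was not called between Prol and Sen (IR) and fell with CCCP. It was at 1500, 1600 and 1470 TPM in Prol and 1540, 1450 and 1220 TPM in Sen (IR), which did not pass the test (−0.19 ± 0.18, adjusted p = 0.371). In Sen (IR) + CCCP it was at 218, 198 and 259 TPM, the largest fibrillar change between these groups (−3.07 ± 0.19, adjusted p = 5.58e-12). With acetate the libraries stood at 87, 68.7 and 74.4 TPM, with mtDNA at 173, 112 and 146 TPM, and with both at 60.9, 117 and 67.9 TPM. None of these 9 reached the lowest Sen (IR) + CCCP library, and replicate 2 of the combined treatment lay within the range of the mtDNA libraries. COL3A1 changed by −1.46 ± 0.18 with acetate (adjusted p = 6.15e-07), by −0.57 ± 0.18 with mtDNA (adjusted p = 0.0306) and by −1.32 ± 0.18 with both (adjusted p = 2.08e-06). Without replicate 2 the last value was −1.68, and the call with mtDNA was lost without any 1 of 4 libraries (Sen (IR) + CCCP replicates 1 and 3, mtDNA replicates 2 and 3).

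The 2 chains of the main type V heterotrimer parted from each other. COL5A1 (chr9:134641803-134844843, plus strand) was at 560, 639 and 526 TPM in Prol, 294, 296 and 263 TPM in Sen (IR) and 101, 102 and 100 TPM in Sen (IR) + CCCP. COL5A2 (chr2:189031898-189225312, minus strand) was at 1070, 1130 and 1050 TPM in Prol, 1310, 1250 and 1090 TPM in Sen (IR) and 737, 736 and 799 TPM in Sen (IR) + CCCP. COL5A1 thus fell at both steps (−1.09 ± 0.09, adjusted p = 1.39e-09, and −1.92 ± 0.09, adjusted p = 1.09e-13), and COL5A2 only passed the threshold at the second (0.09 ± 0.07, adjusted p = 0.320, and −1.11 ± 0.07, adjusted p = 1.40e-11). Without Sen (IR) replicate 3, COL5A2 was called higher at the first step. With acetate, COL5A1 stood at 88.6, 86.5 and 85.3 TPM and COL5A2 at 996, 955 and 915 TPM. With mtDNA, COL5A1 stood at 83.3, 76.9 and 79.2 TPM and COL5A2 at 675, 559 and 618 TPM. With both, COL5A1 stood at 80.1, 113 and 85.8 TPM and COL5A2 at 915, 1020 and 975 TPM. COL5A2 rose with acetate (0.43 ± 0.07, adjusted p = 2.73e-05) and with both (0.49 ± 0.07, adjusted p = 5.30e-06), with no overlap with the Sen (IR) + CCCP libraries, whereas COL5A1 did not pass with acetate (−0.12 ± 0.09, adjusted p = 0.280). The calls with mtDNA alone were close to the threshold in both chains (−0.27 ± 0.09, adjusted p = 0.0499, and −0.22 ± 0.07, adjusted p = 0.0395) and were lost without any 1 of the 6 libraries for COL5A1 and any 1 of 5 for COL5A2 (all but mtDNA replicate 1). COL5A2 and COL3A1 lie next to each other on chromosome 2, their 3′ ends 19151 bases apart and facing.

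COL5A3 (chr19:9959561-10010504, minus strand), a type V chain of low abundance, showed the largest change of any collagen with acetate. It was at 5.68, 5.77 and 5.22 TPM in Prol, 3.44, 3.5 and 3.07 TPM in Sen (IR), 2.33, 2 and 2.3 TPM in Sen (IR) + CCCP and 2.88, 2.55 and 1.98 TPM with mtDNA. In the acetate group it was at 0, 0.066 and 0.14 TPM, which are 0, 4 and 9 counts, and with both at 0.0795, 0.0872 and 0.0256 TPM, which are 4, 3 and 1 counts. The 6 libraries with acetate were thus near 0 and the 12 without it each held at least 80 counts. The log2 fold change was −4.66 ± 0.31 with acetate (adjusted p = 2.65e-11), −4.90 ± 0.35 with both over Sen (IR) + CCCP (adjusted p = 7.63e-11) and −5.13 ± 0.35 with both over mtDNA (adjusted p = 3.56e-11), each the largest among fibrillar genes. Summed over 3 libraries, Sen (IR) + CCCP held 285 counts and the acetate group 13, a ratio of 26 at equal depth with an exact 95% interval of 14.9 to 49.3 that covers counting error only. The 250 bases before the RefSeq start of COL5A3 (GRCh38.p14, chr19:10010505-10010754, minus strand) are shown because this gene fell furthest with acetate, with capitals marking the CCAAT box, the TATAAA box and the GC box (GGGCGG) on either strand.
COL5A3: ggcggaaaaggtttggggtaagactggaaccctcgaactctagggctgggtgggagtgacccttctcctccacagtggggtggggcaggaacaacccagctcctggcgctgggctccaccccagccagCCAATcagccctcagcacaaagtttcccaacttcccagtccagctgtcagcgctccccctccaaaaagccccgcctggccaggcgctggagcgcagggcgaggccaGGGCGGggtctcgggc

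COL11A1 (chr1:102876467-103108872, minus strand), which with type V nucleates thin fibrils, moved the other way with acetate. It fell in senescence (−0.86 ± 0.14, adjusted p = 1.55e-05) and with CCCP (−2.70 ± 0.17, adjusted p = 5.06e-12), from 26.2 to 29.2 TPM in Prol to 14.4 to 18 TPM in Sen (IR) and 3.1 to 3.57 TPM in Sen (IR) + CCCP. With acetate it stood at 10.9 to 12.3 TPM (1.87 ± 0.17, adjusted p = 4.79e-09), with mtDNA at 2.75 to 3.49 TPM, and with both at 11 to 19.6 TPM (2.20 ± 0.17, adjusted p = 3.32e-10). No library with acetate overlapped one without it among the mitochondria-depleted groups. The highest value, 19.6 TPM, was replicate 2 of the combined treatment, without which the change was 1.89.

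COL24A1 and COL27A1, chains of fibrillar types expressed mainly in developing skeletal tissue, were the fibrillar genes called lower with mtDNA both without and with acetate in the fit to all libraries. COL1A1 and COL1A2, which fell with mtDNA alone, were also called lower with acetate present once replicate 2 of the combined treatment was left out. COL24A1 (chr1:85729233-86156943, minus strand) was at 2.28, 2.58 and 2.33 TPM in Prol and 8, 6.78 and 7.41 TPM in Sen (IR), the only fibrillar gene called higher in senescence in the fit to all libraries (1.55 ± 0.11, adjusted p = 1.71e-10). It was at 7.05, 6.29 and 7.43 TPM in Sen (IR) + CCCP, 6.83, 8.29 and 7.69 TPM with acetate, 2.36, 2.66 and 3.38 TPM with mtDNA and 4.46, 5.03 and 5.75 TPM with both. Every library given mtDNA lay below every other irradiated library. The change with mtDNA was −1.22 ± 0.12 (adjusted p = 1.37e-07) and that of adding mtDNA to acetate was −0.56 ± 0.11 (adjusted p = 0.00144). COL27A1 (chr9:114155537-114312511, plus strand) was at 18.8, 20.3 and 19 TPM in Prol, 12.8, 13.3 and 13.8 TPM in Sen (IR), 13.7, 12.2 and 13 TPM in Sen (IR) + CCCP and 12.5, 14.8 and 14.1 TPM with acetate. It was at 8.5, 7.91 and 7.56 TPM with mtDNA and 8.37, 9.53 and 9.22 TPM with both, again below all libraries without mtDNA. The change was −0.62 ± 0.07 with mtDNA (adjusted p = 6.27e-07) and −0.58 ± 0.07 for mtDNA added to acetate (adjusted p = 3.63e-06), the largest fibrillar change in that comparison. The falls of both genes with CCCP on the count scale (−0.53 ± 0.11, adjusted p = 1.27e-04, and −0.47 ± 0.06, adjusted p = 1.43e-06) were −0.08 and −0.04 on log2(TPM + 1) and did not pass there. COL11A2 stayed between 0.462 and 1.2 TPM and passed in none of the 8 comparisons.

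**Figure D3:**
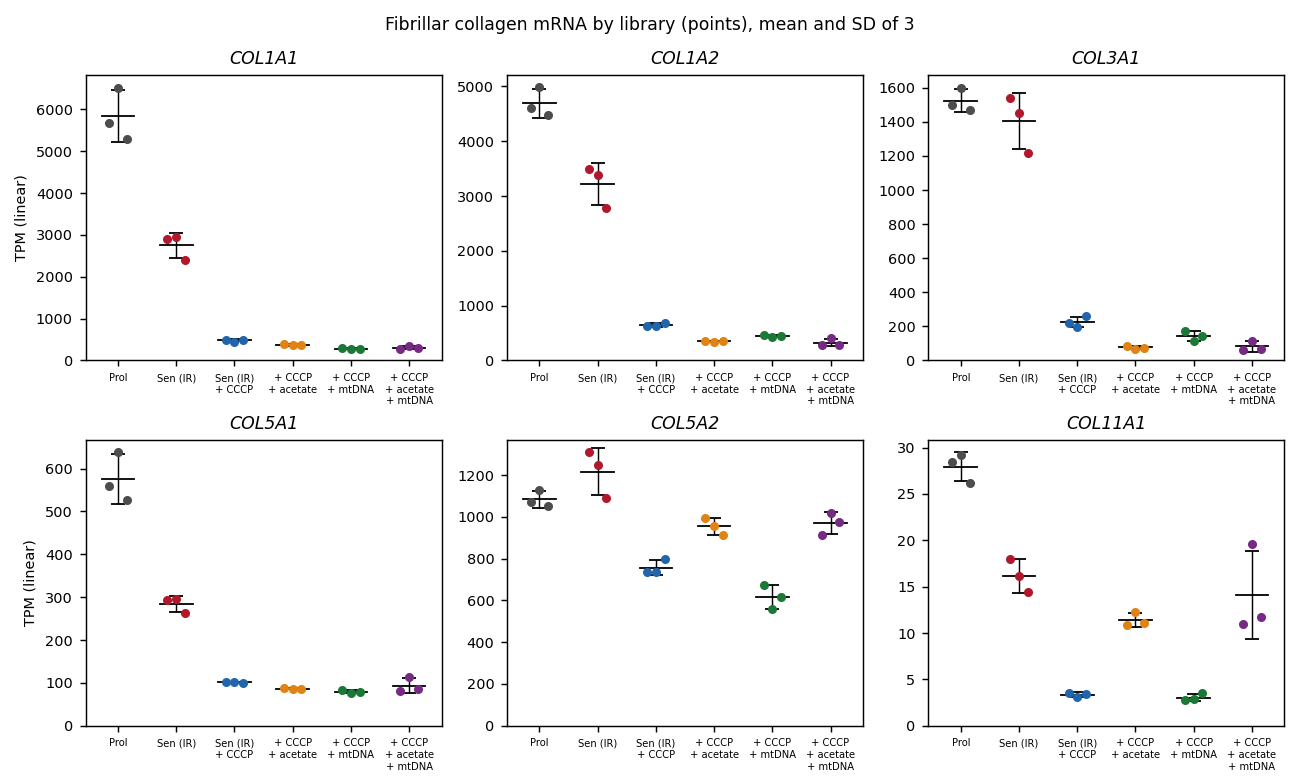
TPM (linear axes from 0) of 6 fibrillar collagen genes in the 6 groups; points are libraries, the long bar is the mean and the whiskers are 1 SD (n = 3). COL1A1, COL1A2 and COL3A1 lie at or below 679 TPM in all mitochondria-depleted libraries, while COL5A2 and COL11A1 are higher in the 2 groups given acetate than in the 2 depleted groups without it.

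Basement membrane collagens held the narrowest range of shares of the counts among the 3 classes. COL4A1 and COL4A2, the ubiquitous chains of the type IV network, start head to head on chromosome 13 (COL4A1 at chr13:110148963-110307157, minus strand, and COL4A2 at chr13:110305812-110513209, plus strand) and their GENCODE models overlap, but an interval lies between their RefSeq starts. The plus strand of this interval (GRCh38.p14, chr13:110307158-110307283) is shown because both genes are read outward from it, with capitals for the same motifs.
COL4A1-COL4A2 interval: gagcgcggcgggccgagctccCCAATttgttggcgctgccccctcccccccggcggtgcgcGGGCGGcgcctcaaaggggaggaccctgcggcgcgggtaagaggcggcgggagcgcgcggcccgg

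COL4A1 was at 907, 979 and 869 TPM in Prol, 1110, 1110 and 952 TPM in Sen (IR) and 947, 998 and 954 TPM in Sen (IR) + CCCP, so these 3 groups were close. Without Sen (IR) replicate 3, COL4A1 was called higher in Sen (IR) than in Prol. After acetate it was at 909, 885 and 844 TPM, with mtDNA at 1000, 942 and 948 TPM, and with both at 940, 1080 and 994 TPM. COL4A2 was at 593, 658 and 558 TPM in Prol, 532, 533 and 451 TPM in Sen (IR), 523, 550 and 524 TPM in Sen (IR) + CCCP, 593, 586 and 552 TPM with acetate, 558, 547 and 525 TPM with mtDNA and 616, 688 and 647 TPM with both. On the count scale both fell with CCCP (−0.56 ± 0.07, adjusted p = 1.58e-07, and −0.35 ± 0.07, adjusted p = 8.95e-05), but on log2(TPM + 1) the differences were −0.13 and 0.08 and neither passed. COL4A2 rose with acetate (0.22 ± 0.07, adjusted p = 0.00934), but on log2(TPM + 1) the difference was 0.12 and did not pass. Both genes rose when mtDNA was added to acetate (0.23 ± 0.07, adjusted p = 0.0257, and 0.21 ± 0.07, adjusted p = 0.0464). Without replicate 2 of the combined treatment those last 2 changes were 0.16 and 0.15 (adjusted p = 0.116 and 0.169). The COL4A1 call was also lost without acetate replicate 2 or 3, and the COL4A2 call without any other library but replicate 1 of the combined treatment. The TPM ratio of COL4A1 to COL4A2 separated groups more than either gene: it was 1.49 to 1.56 in Prol, 2.08 to 2.11 in Sen (IR), 1.81 to 1.82 in Sen (IR) + CCCP, 1.72 to 1.81 with mtDNA, 1.51 to 1.53 with acetate and 1.53 to 1.57 with both.

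COL15A1 (chr9:98943179-99070792, plus strand), whose product links basement membranes to the matrix beneath them, had the largest change past the threshold in its class in 7 of the 8 comparisons. It was at 65.4, 69.8 and 64.7 TPM in Prol, 8.45, 6.7 and 6.8 TPM in Sen (IR) and 16.4, 16.6 and 18.1 TPM in Sen (IR) + CCCP. In the acetate group it was at 6.69, 6.7 and 7.14 TPM, with mtDNA at 23.5, 19.4 and 22.5 TPM, and with both at 6.8, 7.14 and 6.86 TPM. The groups fell into separate ranges except that Sen (IR) and the 2 acetate groups overlapped. The log2 fold change was −3.25 ± 0.08 in senescence (adjusted p = 2.94e-18), 0.77 ± 0.08 with CCCP (adjusted p = 3.52e-08) and −1.21 ± 0.08 with acetate (adjusted p = 5.64e-11). It was 0.43 ± 0.08 with mtDNA (adjusted p = 4.16e-04), −1.16 ± 0.09 with both (adjusted p = 1.59e-10) and −1.60 ± 0.09 for acetate added to mtDNA (adjusted p = 1.08e-12). In the comparison of Sen (IR) + CCCP with Prol it was −2.48 ± 0.08 (adjusted p = 3.54e-17).

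COL4A6, a chain of smooth muscle and epithelial basement membranes, moved in the same direction as COL15A1 with CCCP and with acetate, at a smaller size, but was not called with mtDNA alone (−0.07 ± 0.06, adjusted p = 0.495). It rose with CCCP (0.61 ± 0.06, adjusted p = 4.71e-09), fell with acetate (−0.56 ± 0.06, adjusted p = 3.10e-08) and fell with both (−0.66 ± 0.06, adjusted p = 2.43e-09). It stood at 17.8 to 19.2 TPM in Sen (IR), 36.5 to 40.3 in Sen (IR) + CCCP, 22.1 to 25.5 with acetate, 33.3 to 35.8 with mtDNA and 21 to 22.4 with both. Its neighbour COL4A5, which starts 340 bases away in the opposite direction on chromosome X, fell with acetate (−0.34 ± 0.06, adjusted p = 2.48e-05) but was not higher with CCCP (−0.44 ± 0.06, adjusted p = 5.62e-07; −0.01 on log2(TPM + 1)). COL18A1, the source of endostatin, fell in senescence (−1.38 ± 0.10, adjusted p = 1.30e-10), from 46.6 to 56 TPM to 16.3 to 23.4 TPM, and was at 20.4 to 29.2 TPM in all mitochondria-depleted libraries. COL4A4 held 1 to 21 counts per library and passed in none of the 8 comparisons, and COL4A3 was not tested.

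**Figure D4:**
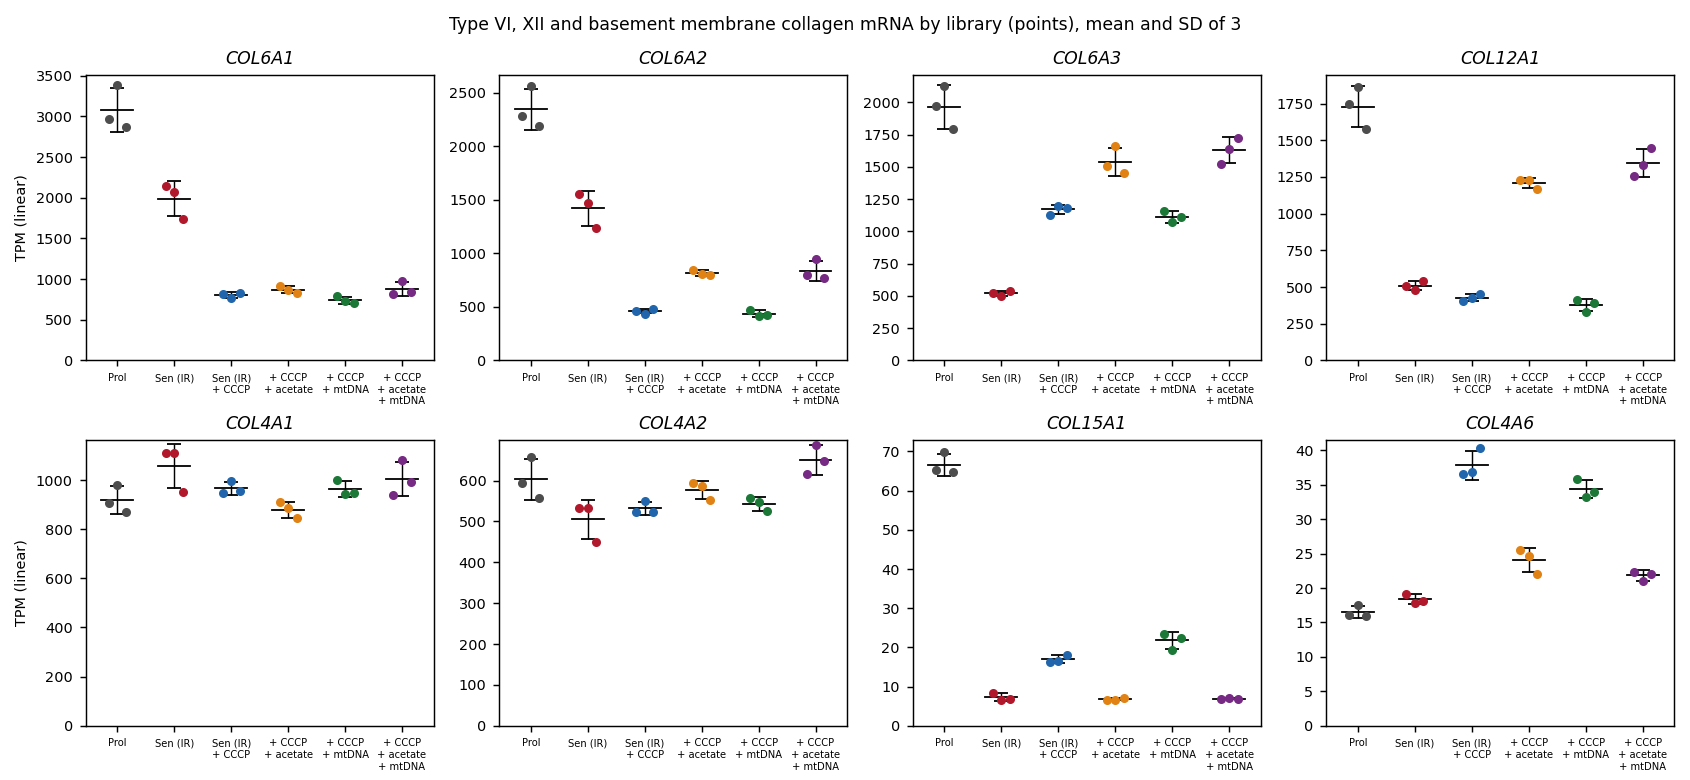
TPM (linear axes from 0) of 4 other and 4 basement membrane collagen genes in the 6 groups; points are libraries, the long bar is the mean and the whiskers are 1 SD (n = 3). COL6A3 is higher in all 4 mitochondria-depleted groups than in Sen (IR), and among these highest in the 2 given acetate. Of the depleted groups, only the 2 given acetate exceed Sen (IR) in COL12A1. COL15A1 and COL4A6 are lower with acetate than without it after CCCP, and COL4A1 and COL4A2 vary little (with CCCP over Sen (IR), −0.13 and 0.08 on log2(TPM + 1), against −0.56 and −0.35 on counts).

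The type VI chains, which assemble with each other into 1 heterotrimer before secretion, did not move together. COL6A1 (chr21:45981770-46005050, plus strand) was at 2970, 3380 and 2870 TPM in Prol, 2150, 2070 and 1740 TPM in Sen (IR) and 819, 767 and 826 TPM in Sen (IR) + CCCP. COL6A2 (chr21:46098112-46132848, plus strand) was at 2280, 2560 and 2190 TPM in Prol, 1550, 1470 and 1240 TPM in Sen (IR) and 464, 438 and 482 TPM in Sen (IR) + CCCP. COL6A3 (chr2:237324003-237414328, minus strand) was at 1970, 2130 and 1790 TPM in Prol, 526, 500 and 539 TPM in Sen (IR) and 1130, 1200 and 1180 TPM in Sen (IR) + CCCP. All 3 fell in senescence, COL6A3 most (−0.70 ± 0.08, adjusted p = 1.87e-07; −0.80 ± 0.09, adjusted p = 5.85e-08; and −1.99 ± 0.06, adjusted p = 8.79e-17). With CCCP, COL6A1 and COL6A2 fell further (−1.74 ± 0.08, adjusted p = 7.49e-14, and −2.05 ± 0.09, adjusted p = 1.49e-14) while COL6A3 rose (0.74 ± 0.06, adjusted p = 3.73e-10), a rise that passed under every alternative run.

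With acetate, COL6A1 was at 915, 866 and 835 TPM, COL6A2 at 844, 803 and 798 TPM and COL6A3 at 1510, 1660 and 1450 TPM. With mtDNA they were at 789, 729 and 706 TPM, at 473, 414 and 426 TPM and at 1160, 1070 and 1110 TPM. With both, they were at 811, 972 and 839 TPM, at 794, 944 and 768 TPM and at 1520, 1640 and 1720 TPM. COL6A2 and COL6A3 with acetate, alone or with mtDNA, did not overlap the depleted groups without it, whereas COL6A1 overlapped between the combined treatment and Sen (IR) + CCCP. COL6A2 rose by 0.92 ± 0.09 with acetate (adjusted p = 7.62e-09), COL6A3 by 0.49 ± 0.06 (adjusted p = 3.00e-07) and COL6A1 by 0.22 ± 0.08 (adjusted p = 0.0284), the last lost without Sen (IR) + CCCP replicate 2 or acetate replicate 1. On log2(TPM + 1) the COL6A1 difference was 0.12, or 0.21 after centring each library on its median, and passed in neither. The log2 fold changes of COL6A1, COL6A2 and COL6A3 with mtDNA alone were −0.04, 0.00 and 0.00. The ratio of COL6A1 to COL6A2 in TPM was 1.3 to 1.32 in Prol, 1.39 to 1.41 in Sen (IR), 1.66 to 1.77 in the depleted groups without acetate and 1.02 to 1.09 in those with it. The ratio of COL6A3 to COL6A1 was 0.626 to 0.661 in Prol, 0.241 to 0.309 in Sen (IR) and 1.38 to 2.05 in all depleted libraries.

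**Figure D5:**
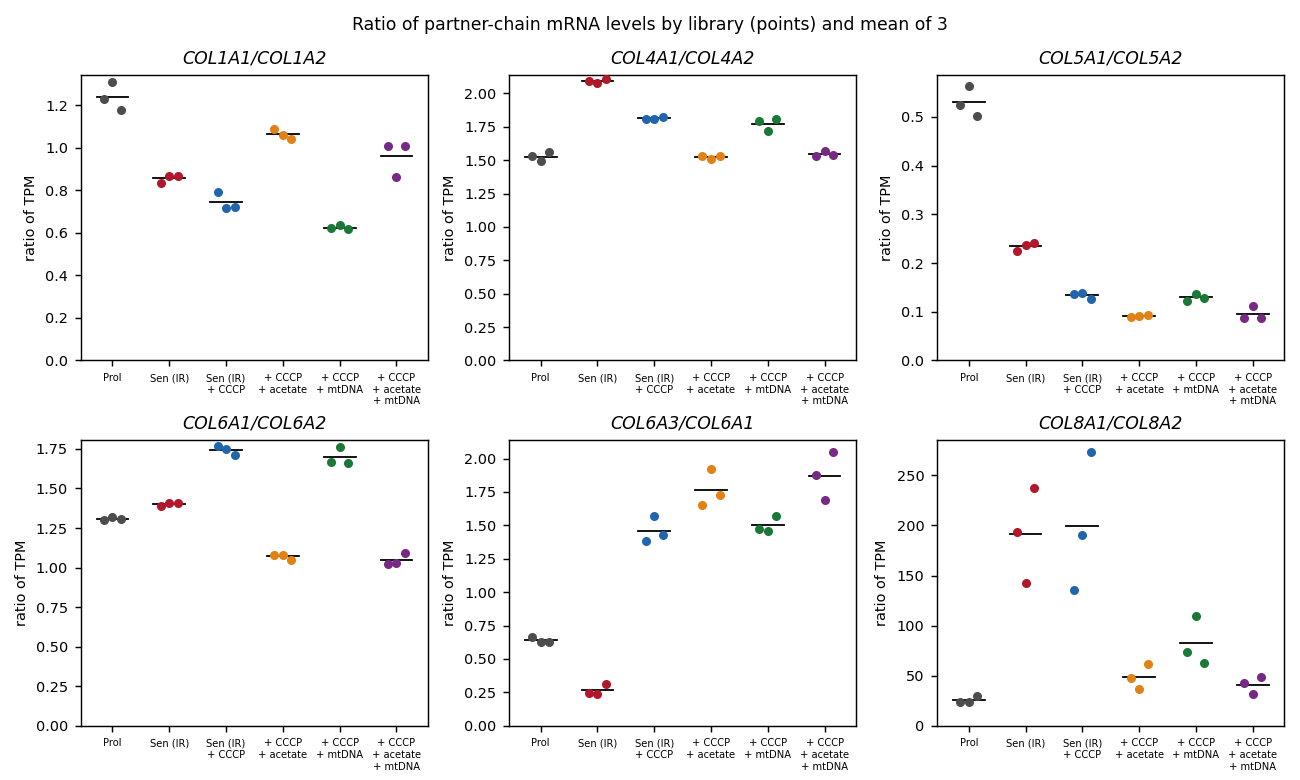
Ratios of TPM between chains of the same collagen type (linear axes from 0) in the 6 groups; points are libraries and the bar is the mean of 3. COL6A1/COL6A2 and COL4A1/COL4A2 are lower in the 2 groups given acetate (1.02 to 1.09 and 1.51 to 1.57) than in Sen (IR) + CCCP and Sen (IR) + CCCP + mtDNA (1.66 to 1.77 and 1.72 to 1.82), and COL6A3/COL6A1 is lowest in Sen (IR).

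Among the collagens that coat fibrils, COL12A1 (chr6:75084326-75206267, minus strand), a flexible bridge between type I fibrils, was the most abundant. It was at 1750, 1860 and 1580 TPM in Prol, 507, 478 and 539 TPM in Sen (IR), 405, 428 and 453 TPM in Sen (IR) + CCCP and 410, 331 and 389 TPM with mtDNA. With acetate it was at 1230, 1230 and 1170 TPM and with both at 1260, 1330 and 1450 TPM, above every Sen (IR) library. The log2 fold change was −1.85 ± 0.07 in senescence (adjusted p = 5.84e-15), −0.67 ± 0.07 with CCCP (adjusted p = 2.72e-08), 1.60 ± 0.07 with acetate (adjusted p = 5.32e-14) and 1.90 ± 0.07 for acetate added to mtDNA (adjusted p = 6.92e-15). COL9A2, a chain of cartilage type IX, had the same signs at a far lower level (−2.13 ± 0.19, −1.58 ± 0.27 and 1.80 ± 0.26, adjusted p = 4.32e-09, 2.33e-05 and 3.32e-06). It stood at 4.9 to 6.53 TPM in Prol, 1.11 to 1.57 TPM in Sen (IR), 0.397 to 0.795 TPM in Sen (IR) + CCCP and 1.82 to 2.18 TPM with acetate.

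COL14A1, a partner of mature fibrils, had the largest fall of any collagen with CCCP. It was at 3.62, 4.86 and 4.27 TPM in Prol, 6.1, 4.35 and 4.91 TPM in Sen (IR) and 0.468, 0.406 and 0.404 TPM in Sen (IR) + CCCP (−4.02 ± 0.29, adjusted p = 4.76e-11). It was at 0.0792, 0.27 and 0.109 TPM with acetate, 0.552, 0.148 and 0.477 TPM with mtDNA and 0.0776, 0.477 and 0.16 TPM with both. Its fall with acetate (−1.30 ± 0.49, adjusted p = 0.0283) was lost without any 1 of 4 libraries (Sen (IR) + CCCP replicates 1 and 2, acetate replicates 1 and 3). COL21A1 had 0, 0 and 3 counts in Prol, 20, 10 and 13 in Sen (IR), 16, 14 and 7 in Sen (IR) + CCCP, 3, 9 and 8 with acetate, 11, 6 and 13 with mtDNA and 7, 1 and 4 with both. At equal depth it was 13.4 times higher in Sen (IR) than in Prol, with an exact 95% interval of 4.28 to 67.3 that covers counting error only (fitted log2 fold change 3.60 ± 0.66, adjusted p = 8.12e-05). Its falls with acetate rested on 20 counts in all with acetate and 12 with both, against 37 in Sen (IR) + CCCP, and were lost without any 1 of 5 libraries for acetate alone (all but Sen (IR) + CCCP replicate 3). COL16A1, found in several fibril types, fell in senescence (−0.60 ± 0.07, adjusted p = 1.90e-07) and with CCCP (−0.80 ± 0.07, adjusted p = 2.12e-09), and rose with acetate (0.24 ± 0.07, adjusted p = 0.00756). That rise was 0.14 on log2(TPM + 1) and did not pass there.

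The network and anchoring collagens differed from chain to chain. COL8A1, a short-chain collagen of vessel walls and the corneal Descemet membrane, rose in senescence (0.88 ± 0.08, adjusted p = 9.59e-09), from 90.9 to 95.3 TPM to 156 to 195 TPM, and fell with CCCP to 56.6 to 60.4 TPM (−2.06 ± 0.09, adjusted p = 9.57e-15). Its partner COL8A2 (chr1:36095239-36125222, minus strand) fell at both steps (−1.94 ± 0.26, adjusted p = 1.23e-06, and −2.04 ± 0.38, adjusted p = 6.54e-05) and by −3.98 ± 0.32 from Prol to Sen (IR) + CCCP (adjusted p = 2.83e-10). COL8A2 was at 3.85, 4.03 and 3.02 TPM in Prol, 0.975, 1.36 and 0.656 TPM in Sen (IR), 0.417, 0.318 and 0.208 TPM in Sen (IR) + CCCP, 1.36, 1.62 and 0.922 TPM with acetate, 0.746, 0.548 and 0.883 TPM with mtDNA and 1.55, 2.61 and 1.41 TPM with both. All 9 treated libraries exceeded the 3 of Sen (IR) + CCCP, which held 5 to 13 counts each. The rise was 2.09 ± 0.37 with acetate (adjusted p = 4.57e-05), 1.24 ± 0.42 with mtDNA (adjusted p = 0.0459, lost without any 1 of 5 libraries, all but mtDNA replicate 2) and 2.62 ± 0.36 with both (adjusted p = 1.65e-06). COL10A1, the collagen of hypertrophic cartilage, rose in senescence (2.59 ± 0.43, adjusted p = 2.72e-05) and fell with CCCP (−1.53 ± 0.37, adjusted p = 0.00107) on 2 to 58 counts per library.

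COL7A1 (chr3:48564073-48595329, minus strand), the anchoring fibril collagen, was the other gene called lower with mtDNA whether or not acetate was present, in the fit to all libraries. It was at 56.1, 62.6 and 55.2 TPM in Prol, 35.3, 30.9 and 37.2 TPM in Sen (IR), 61, 52 and 54.3 TPM in Sen (IR) + CCCP and 43.2, 55 and 49.6 TPM with acetate. With mtDNA it was at 33.3, 28.9 and 31 TPM and with both at 27.7, 31.1 and 34.2 TPM, below every depleted library without mtDNA. The change was −0.77 ± 0.08 with mtDNA (adjusted p = 7.61e-07) and −0.64 ± 0.08 for mtDNA added to acetate (adjusted p = 2.70e-05). Together with COL24A1 and COL27A1, these were the 3 genes called lower in that last comparison, in each leave-one-out fit as well, while the 3 called higher there (COL4A1, COL4A2 and COL8A1) were all lost without acetate replicate 2, acetate replicate 3 or replicate 2 of the combined treatment. Without replicate 2 of the combined treatment, COL1A1, COL1A2 and COL16A1 were called lower there too. COL16A1 was also called lower with mtDNA alone (adjusted p = 0.0403), a call lost without any 1 of 5 libraries.

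Of the membrane-spanning collagens, COL13A1, found at cell contacts, fell in senescence (−0.75 ± 0.08, adjusted p = 3.25e-08) and rose with acetate (0.38 ± 0.08, adjusted p = 2.52e-04). COL17A1 (chr10:104031286-104085880, minus strand), a hemidesmosome protein of keratinocytes, was close to the detection limit, at 0.337, 0.197 and 0.252 TPM in Prol, 0.343, 0.466 and 0.278 TPM in Sen (IR) and 0.668, 0.829 and 0.448 TPM in Sen (IR) + CCCP. With acetate it was at 0.21, 0.154 and 0.0646 TPM, with mtDNA at 0.394, 1.04 and 0.71 TPM, and with both at 0.0413, 0.0603 and 0.106 TPM. Among mitochondria-depleted cells, libraries with acetate lay below those without it, and they held 2 to 9 counts each. The fall was −2.17 ± 0.43 with acetate (adjusted p = 1.93e-04), −3.11 ± 0.53 with both (adjusted p = 2.55e-05) and −3.30 ± 0.52 for acetate added to mtDNA (adjusted p = 1.33e-05), each the largest of the other collagens. Summed EPCAM, CDH1, KRT5 and KRT14 levels were also lower in the acetate group (0.667 to 0.796 TPM) and with both (0.743 to 1.41 TPM) than in Sen (IR) + CCCP (1.57 to 2.54 TPM), and their part in this result was not tested. COL25A1, a neuronal membrane collagen, was called higher in senescence (1.06 ± 0.42, adjusted p = 0.0347) on 6 to 32 counts, and the call was lost without any 1 of 5 libraries (all but Prol replicate 1).

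Promoter windows from RefSeq (GRCh38.p14) were matched for 32 of the 44 genes, and their 250 bases before the start were searched on both strands. GGGCGG was found in 21 of them (65.6%, against 46.2% of 27305 genes), CCAAT in 11 (34.4%, against 37.0%) and TATAAA in 7 (21.9%, against 13%). COL17A1 (chr10:104085881-104086130, minus strand) is shown with COL5A3 above as the genes with the largest falls with acetate, and COL6A2 (chr21:46097862-46098111, plus strand) and COL8A2 (chr1:36125223-36125472, minus strand) as genes that rose. COL11A1, COL9A2 and COL12A1 rose more than COL6A2 (log2 1.87, 1.80 and 1.60 against 0.92) and are not shown. The windows were 66.0% GC in COL5A3, 40.4% in COL17A1, 79.6% in COL6A2 and 82.0% in COL8A2. COL6A2 held 4 GGGCGG and 1 TATAAA, COL8A2 7 GGGCGG, COL17A1 1 TATAAA and 1 CCAAT, and COL5A3 1 GGGCGG and 1 CCAAT. Such matches describe the letters and were not tested against the responses.
COL17A1: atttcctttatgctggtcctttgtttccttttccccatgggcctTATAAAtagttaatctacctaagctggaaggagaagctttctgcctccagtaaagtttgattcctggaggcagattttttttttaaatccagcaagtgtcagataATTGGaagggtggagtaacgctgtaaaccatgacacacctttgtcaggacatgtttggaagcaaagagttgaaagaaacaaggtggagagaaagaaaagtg
COL6A2: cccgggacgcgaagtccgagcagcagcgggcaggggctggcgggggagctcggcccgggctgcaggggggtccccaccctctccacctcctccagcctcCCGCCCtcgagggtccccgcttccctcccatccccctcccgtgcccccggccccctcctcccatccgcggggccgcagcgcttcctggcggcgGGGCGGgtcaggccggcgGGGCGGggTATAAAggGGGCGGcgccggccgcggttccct
COL8A2: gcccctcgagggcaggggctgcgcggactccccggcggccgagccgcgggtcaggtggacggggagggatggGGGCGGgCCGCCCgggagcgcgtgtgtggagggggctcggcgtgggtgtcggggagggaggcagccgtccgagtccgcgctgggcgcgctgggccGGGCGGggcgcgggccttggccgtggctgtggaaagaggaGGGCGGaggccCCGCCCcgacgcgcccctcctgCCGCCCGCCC

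Whether mtDNA acts differently on collagen genes when acetate is present was tested as an interaction. By edgeR, 0 of 32 genes passed the adjusted threshold in either direction (against 0.0765% higher and 0.583% lower of all genes), 9 had an unadjusted p under 0.05 (against 11.4% of all genes), and 8 of those 9 were above 0. DESeq2 called 2 of the 32 genes higher, against 0.947% of all genes. They were COL1A1 (0.52, adjusted p = 0.00525 by its Wald test) and COL24A1 (0.70, adjusted p = 0.00504), for which edgeR gave 0.49 ± 0.12 (adjusted p = 0.0716) and 0.66 ± 0.16 (adjusted p = 0.0675). COL1A1 changed by −0.72 with mtDNA alone and by −0.23 when it was added to acetate, and COL24A1 by −1.22 and −0.56. Both genes were called by edgeR without either replicate 1 or replicate 2 of the combined treatment. For the other collagen genes neither tool called a difference in response in these fits. With no filter on low counts, edgeR called 7 of 44 genes higher in the interaction, against 0.341% of all genes. They were COL1A1, COL1A2, COL3A1, COL5A1, COL5A2, COL24A1 and COL12A1.

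The enzymes and partners of collagen biosynthesis were counted in 5 lists. Among all genes, 26.7% were higher and 29.9% lower in senescence, 34% and 31.3% with CCCP, and 28.8% and 28.3% with acetate. Of 19 genes for chain modification and folding, 10 were higher and 3 lower in senescence, and 17 were lower and 2 higher with CCCP. The largest falls with CCCP were P3H2, a prolyl 3-hydroxylase (−2.52 ± 0.09, adjusted p = 4.99e-16), and P4HA2, a catalytic subunit of prolyl 4-hydroxylase (−1.95 ± 0.08, adjusted p = 1.14e-14). With acetate, 4 were higher and 10 lower, with P3H2 at 0.88 ± 0.09 (adjusted p = 1.11e-08). Of 14 tested genes for export, propeptide cleavage and cross-linking, 2 were higher and 9 lower in senescence, 2 and 9 with CCCP, and 7 and 1 with acetate. PCOLCE, which enhances the removal of the C-terminal propeptide, fell in senescence (−3.84 ± 0.11, adjusted p = 1.86e-17) and rose with acetate (1.94 ± 0.11, adjusted p = 2.35e-12). The lysyl oxidases LOXL4 and LOXL1 fell with CCCP (−2.17 ± 0.08, adjusted p = 1.66e-15, and −2.17 ± 0.12, adjusted p = 6.81e-13).

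Of 11 tested proteoglycans and glycoproteins that bind fibrils, 2 rose and 6 fell in senescence. With CCCP 9 fell, with lumican (LUM) at −2.63 ± 0.11 (adjusted p = 5.37e-15). With acetate, 5 rose and 1 fell, with biglycan (BGN) at 2.00 ± 0.16 (adjusted p = 6.73e-10) and LUM at 1.95 ± 0.11 (adjusted p = 9.42e-13). Of 14 tested basement membrane partners, 3 rose and 11 fell in senescence, and 12 fell and 1 rose with CCCP, with the laminin chain LAMA4 at −2.20 ± 0.08 (adjusted p = 1.18e-15). With acetate, 8 rose and 4 fell, with perlecan (HSPG2) at 1.15 ± 0.16 (adjusted p = 1.79e-06) and nidogen (NID1) at 0.89 ± 0.08 (adjusted p = 2.55e-09). Of 8 tested collagen receptors, 1 rose and 5 fell in senescence, and 5 fell and 2 rose with CCCP. With acetate 6 rose, among them the endocytic receptor MRC2 (1.48 ± 0.09, adjusted p = 2.45e-12) and the integrin chain ITGA1 (1.47 ± 0.06, adjusted p = 2.05e-14). With mtDNA alone, each of the 5 lists had at most 2 genes called in either direction (against 10.7% higher and 7.4% lower of all genes), with PLOD2, a lysyl hydroxylase, at −0.23 ± 0.06 (adjusted p = 0.0126).

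The 12 genes that were not tested, COL2A1, COL4A3, COL6A5, COL6A6, COL9A1, COL9A3, COL19A1, COL20A1, COL22A1, COL23A1, COL26A1 and COL28A1, held at most 13 counts in any library and at most 0.277 TPM. They include the main collagen of cartilage (COL2A1) and a chain of the glomerular basement membrane (COL4A3), and were left out by the filter on low counts. COL22A1, named here after its values were seen, held 0 counts in each Prol library and 7, 11 and 4 in Sen (IR), and was called higher there in the fit with no filter on low counts.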

How the data were processed

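Per the study's methods, reads of 150 bases were trimmed with Trimmomatic 0.36, aligned to GRCh38 with STAR 2.5.2b and counted per gene with featureCounts (Subread 1.5.2), strandedness not being stated, and the authors deposited the raw counts and, in a second table, TPM, which correct for gene length and sum to the same total in every library. From the counts, 1 edgeR 4.0.16 quasi-likelihood model (R 4.3.3) with 6 group means, TMM scaling and edgeR's default filter gave 16994 tested genes with a common biological coefficient of variation of 0.0644, which sets the precision at these depths, and intervals cover counting error only. Shares of counts were compared by exact two-sided permutation tests. Alternatives were DESeq2 1.42.0, limma 3.58.1 on log2(TPM + 1), other filters and scalings, and leaving out each library. The members, classes and partner lists were chosen with earlier results of these data known. Values per library are given for COL1A1, COL1A2, COL3A1, COL5A1, COL5A2, COL6A1 to COL6A3, COL4A1 and COL4A2 and for the gene past the threshold with the largest change in each class and comparison, with further members by fold change. Partner genes were named among those with the largest called change in their list. Replicate numbers did not pair the libraries (45 correlations of deviations, −0.082 to 0.092), so no block was used. Positions are from GENCODE v44 on GRCh38. Promoter sequences are from RefSeq (GRCh38.p14), found for 32 of 44 genes. One leukocyte marker is not reported here.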

Additional observations from a re-analysis of the deposited data

How the results depend on the processing

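Single-gene values were followed only for genes called in the fit above, so new calls are not counted here. With 1 library left out, 924 kept direction and side of the threshold and 90 fell short of it. Under the other settings, 1429 kept both, 48 fell short and 6 reversed. On log2(TPM + 1) over Sen (IR), Sen (IR) + CCCP had COL4A2 at 0.080, COL18A1 at 0.11 and COL13A1 at 0.22, and over Prol COL4A1 at 0.075 and COL4A5 at 0.10, with COL21A1 over Prol at −0.10 after median centring, an alternative chosen after seeing the data. On log2(TPM + 1) the median of all genes was 0.35, 0.42 and, for acetate + mtDNA over Sen (IR) + CCCP, −0.13 (0.03, 0.03 and −0.04 on counts). In that last comparison 22.9% of genes were then higher and 40.7% lower (30.3% and 31.4% on counts). With acetate the split was 22.6% and 34.6% (28.8% and 28.3% on counts). On this scale, higher calls were 6 in Sen (IR) + CCCP over Prol (against 60.4% of all genes), 8 with acetate (22.6%), 1 with mtDNA (6.63%) and 0 for acetate + mtDNA over acetate (3.69%). Median centring gave 1 higher call with mtDNA (against 9.24% of all genes) and medians of −0.50 (Sen (IR) over Prol) and 0.068 (acetate + mtDNA over Sen (IR) + CCCP). With at least 10 counts in every library, which left 23 of the genes, 2 were higher in Sen (IR) over Prol (against 29.9% of all genes). In that fit 6 were lower with acetate (31.6%), 1 higher with mtDNA (11.9%) and 5 lower for acetate + mtDNA over mtDNA (33%). The medians were −0.56 (Sen (IR) + CCCP over Sen (IR)), 0.20 (acetate) and 0.056 (acetate + mtDNA over Sen (IR) + CCCP). With no filter and all 44 genes, 5 were higher for acetate + mtDNA over acetate (against 2.67% of all genes) and 7 in the interaction (0.341%). The medians were −0.13, −0.59 and −0.80 in Sen (IR) over Prol, Sen (IR) + CCCP over Sen (IR) and over Prol, and −8e-04, −0.20 and −0.31 with acetate, mtDNA and both. DESeq2 at an unadjusted p under 0.05 and a change over 0.5 gave 5, 1 and 7 higher with acetate, mtDNA and both (against 15.8%, 4.35% and 18.2% of all genes). It gave 6 lower with mtDNA (5.2%), 1 higher for acetate + mtDNA over acetate (2.67%), 8 over mtDNA (16.5%) and 3 in the interaction (1.52%). Fitting only the groups compared gave 0 higher for acetate + mtDNA over acetate (against 5.04% of all genes) and 1 in the interaction (0.104%), and DESeq2's Wald test 2 in the interaction (0.947%). The replicate block, although the numbers did not pair the libraries, gave 1 higher in the interaction (against 0.112% of all genes) and moved no other count by more than 1.5 times. The share of TPM on collagens was 0.0368 points higher for acetate + mtDNA over acetate, against 0.062 points for the share of counts, with overlap between the libraries on both. Leaving out 1 library at a time gave 1 to 2 higher and 5 to 8 lower with mtDNA, 0 to 5 higher and 3 to 6 lower for acetate + mtDNA over acetate, and 0 to 2 higher in the interaction, with medians of 0.057 to 0.21 (acetate), −0.18 to −0.060 (mtDNA), −0.22 to 0.14 (both over Sen (IR) + CCCP) and −0.053 to 0.10 (acetate + mtDNA over acetate). The cause of these shifts was not tested, except that fewer genes or libraries entered some fits. Depth limits COL21A1, COL17A1, COL4A4, COL10A1, COL25A1 and the 12 untested genes.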
